A study of Homo sapiens with 8 samples.

Results

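The 6 genes described here encode the ligands, receptors and close partners of angiopoietin signalling: ANGPT1, ANGPT2, TEK, TIE1, PTPRB and SVEP1. They were taken by gene symbol from a table of 30386 genes, and each symbol matched 1 gene. The symbols were proposed with results of the same table in view, so the difference of each gene between the groups is given as a description, with no p-value. RNA sequencing compared iEC, endothelial cells, with iREC, retinal endothelial cells, and both were derived from WTC-TJP1, an established line of human induced pluripotent stem cells. Each group had 4 samples at passage 1, lettered C to F. The labels give the iREC as the matched differentiation of that line, name no treatment and use the same cell type term for both groups. Nothing in the labels says that the samples of a group were separate cultures, so standard errors and p-values measure the spread between these samples, which may be technical.

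TEK, also called TIE2, is a receptor tyrosine kinase of endothelial cells. ANGPT1, made mainly by mural and other mesenchymal cells, activates TEK and keeps vessels quiet through PI3 kinase and AKT, which hold the transcription factor FOXO1 out of the nucleus. ANGPT2, made by endothelial cells and stored in their Weibel-Palade bodies, binds the same receptor and acts as a weak or opposing ligand depending on context. TIE1 is a related receptor with no angiopoietin of its own that pairs with TEK. PTPRB, also called VE-PTP, is the endothelial phosphatase that removes phosphate from TEK, and SVEP1 is a large matrix protein that binds TIE1. In the retina these genes are known for their part in vessel remodelling and barrier leak.

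Read counts per sample summed to between 14877502 and 16971865 in iEC and between 13739364 and 15987839 in iREC, so that 3 reads, taken as the floor, stood for 0.178 to 0.215 CPM, a count scaled to a common library total. Library totals were scaled by TMM, and ± is the SD over 4 samples unless another error is named. Where 4 values follow each other for a group, they belong to its samples C, D, E and F in that order. The list of 11 endothelial markers, which includes PECAM1, CDH5 and VWF, was above 3 counts in both groups for all 11 genes. Their summed level ran from 6981 to 8806 CPM in iEC and was 6667, 7106, 8699 and 3905 CPM in the 4 iREC samples. The library iREC F stood apart from the other 3 iREC samples: it had the lowest endothelial sum and the highest level of 9 of 10 measured fibroblast and mesenchymal markers and of 6 of 6 epithelial markers. The fold changes of the 6 genes are given with and without iREC F.

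Across the 15330 genes that passed the filter on low counts, edgeR's quasi-likelihood test called 25.0% at an adjusted p under 0.05, 13.2% higher and 11.7% lower in iREC. All 6 genes passed that filter, SVEP1 only through its iREC samples, since 2 of its iEC samples had under 10 reads. In the same fit 4 of the 6 were called, TEK, PTPRB and SVEP1 as higher in iREC and ANGPT2 as lower, and the same 4 were called without iREC F. By limma-voom SVEP1 was not among them. In 5 of the 6 the groups did not overlap, against 29.1% of all tested genes. The median log2 fold change was 1.71 over the 6 genes and 0.02 over all tested genes. The genes were chosen from this contrast, and nothing is read from these shares.

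The ligand ANGPT2 (ENSG00000091879, minus strand of chromosome 8, 6499651 to 6563409 on GRCh38) was abundant in iEC and low in iREC. It stood at 1776, 1454, 2001 and 1877 CPM in the 4 iEC samples. In the 4 iREC samples it stood at 25.78, 33.05, 26.38 and 20.70 CPM. Every iREC sample lay far below every iEC sample, and within each group the samples lay close together, the highest being 1.38 times the lowest in iEC and 1.6 times in iREC. The means were 1777 ± 234 and 26.5 ± 5.07 CPM, a log2 fold change of -6.07 ± 0.21 (SE, edgeR), or 67.1-fold lower in iREC. Without iREC F the log2 fold change was -5.97. Among 16828 protein-coding genes ranked by deposited FPKM (reads per length and library size), ANGPT2 was between place 65 and place 105 in the iEC samples and between place 6854 and place 8450 in the iREC samples. ANGPT2 shares 78 of its 6775 exon bases with MCPH1, a gene on the opposite strand that measured 17.2 to 29.4 CPM over the 8 samples. That range is for all of MCPH1, not for the 78 shared bases alone. It overlaps the ANGPT2 level in iREC, and whether counting separated the strands is not given in the sources used here.

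ANGPT1 (ENSG00000154188, minus strand of chromosome 8, 107249482 to 107498055), the activating ligand, was low in both groups, with 37 to 246 reads per sample. Its level was 4.616, 6.005, 3.433 and 2.648 CPM in the 4 iEC samples and 5.954, 8.422, 4.031 and 16.11 CPM in the 4 iREC samples. The groups overlapped, and the highest sample was iREC F. The means were 4.18 ± 1.46 and 8.63 ± 5.30 CPM, and the log2 fold change was 1.04 ± 0.44 (SE, edgeR). Without iREC F the iREC mean was 6.14 ± 2.20 CPM (SD, n = 3) and the log2 fold change 0.55.

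**Figure D1:**
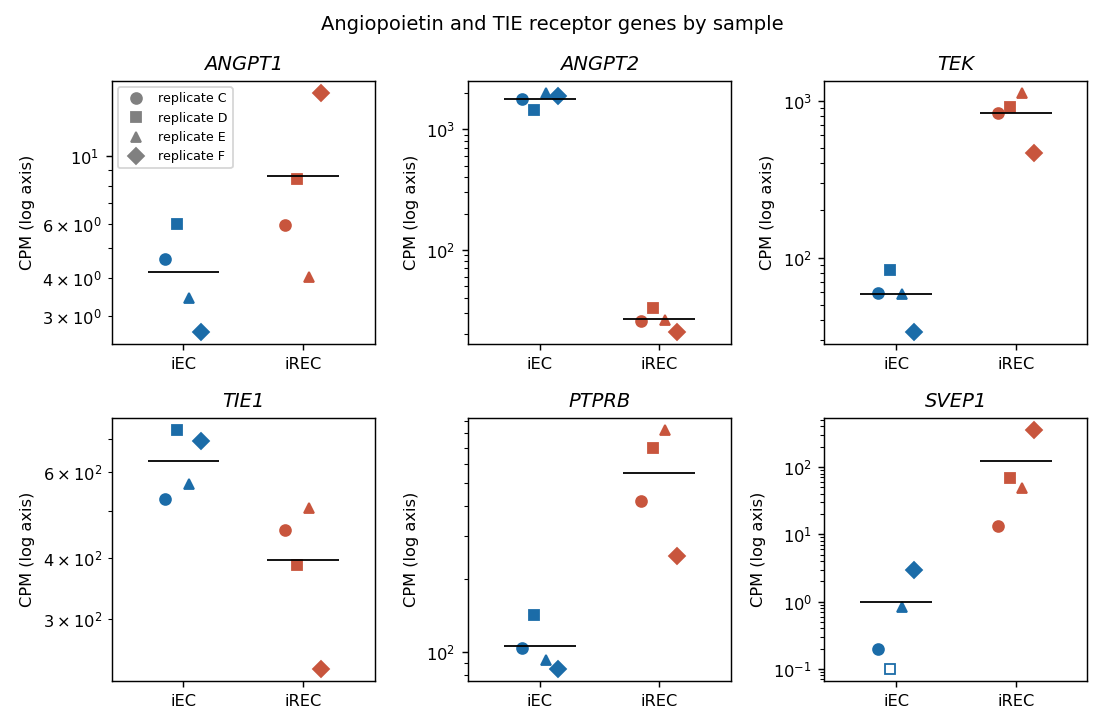
Level of each of the 6 genes in CPM on a log axis, by group; each point is 1 sample, its shape the replicate letter, and the bar is the group mean. The open square for SVEP1 is iEC D, which had 0 reads and is drawn at the foot of the axis; the groups overlap only for ANGPT1.

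Because FPKM corrects for gene length, the ligands can be set against each other within a sample. The FPKM ratio of ANGPT2 to ANGPT1 was 405, 255, 613 and 746 in the 4 iEC samples. In the 4 iREC samples it was 4.56, 4.13, 6.89 and 1.35. ANGPT2 thus exceeded ANGPT1 in all 8 samples, with a mean ratio of 505 ± 218 in iEC and 4.23 ± 2.27 in iREC, or 5.19 ± 1.49 (SD, n = 3) without iREC F. The ratio of iREC F was the lowest of the 8, in the sample with the highest ANGPT1 and the lowest ANGPT2 level.

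Of the receptors, TEK (ENSG00000120156, plus strand of chromosome 9, 27109141 to 27230175) was the one with the large difference. Its level was 59.75, 84.0, 58.48 and 33.5 CPM in the 4 iEC samples. It was 838.7, 906.8, 1118 and 466.4 CPM in the 4 iREC samples. The lowest iREC sample, F, was well above the highest iEC sample, D. The means were 58.9 ± 20.6 and 833 ± 272 CPM, a log2 fold change of 3.82 ± 0.35 (SE, edgeR), or 14.1-fold higher in iREC, and 4.02 on the log2 scale without iREC F. By FPKM, TEK moved from between place 2524 and place 5383 among protein-coding genes in iEC to between place 74 and place 340 in iREC.

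TIE1 (ENSG00000066056, plus strand of chromosome 1, 43300993 to 43323108), the partner receptor, differed less and the other way. Its level was 529.5, 733.0, 567.0 and 694.6 CPM in the 4 iEC samples and 456.8, 386.8, 505.9 and 237.2 CPM in the 4 iREC samples. The groups did not overlap, but iREC E and iEC C were close. The means were 631 ± 98.1 and 397 ± 117 CPM, a log2 fold change of -0.67 ± 0.23 (SE, edgeR), or 1.59-fold lower. Without iREC F the log2 fold change was -0.49.

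The start regions of both receptor genes are shown because the levels of the pair stood in opposite order in the 2 groups. The stretches come from RefSeq on GRCh38.p14, on the strand of the gene. That of TIE1 ends at the base before its RefSeq start (43300982), and that of TEK ends at the base before its GENCODE start (27109141), which lies upstream of its RefSeq start (27109225). Capitals mark GGAA or its reverse complement TTCC, the core bound by ETS factors, which include the endothelial regulators ERG and FLI1.

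TIE1 chr1:43300732-43300981: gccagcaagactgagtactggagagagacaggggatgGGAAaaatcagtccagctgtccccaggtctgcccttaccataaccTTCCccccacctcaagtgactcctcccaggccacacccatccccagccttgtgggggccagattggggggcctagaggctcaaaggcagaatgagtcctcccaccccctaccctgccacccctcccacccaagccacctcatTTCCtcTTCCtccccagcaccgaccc

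TEK chr9:27108975-27109140: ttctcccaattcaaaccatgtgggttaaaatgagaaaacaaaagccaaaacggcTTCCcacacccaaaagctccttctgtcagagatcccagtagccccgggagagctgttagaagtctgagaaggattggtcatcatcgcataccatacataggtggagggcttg

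The TIE1 stretch holds 4 matches in 250 bases and the TEK stretch 1 in 166 bases. In the whole 300-base RefSeq windows, counted on both strands, TIE1 held 4 matches and the TEK windows at its alternative starts held 4 and 7. The 2 TEK windows overlap from 27109200 to 27109274, so their counts are not separate. Among all 35116 promoter windows of that length, 46.0% held at least 4 GGAA matches and 8.29% at least 7. The FOXO motif GTAAACA had 1 match in the downstream TEK window and none in the upstream TEK window or the TIE1 window, and 3.42% of all windows held it. The GATA motif AGATAA likewise had 1 match in the downstream TEK window and none in the other windows, against 10.3% of all windows. Both matches, at 27109474 (FOXO) and 27109273 (GATA), lie after the GENCODE start of TEK. The FOXO match also lies after the RefSeq start of its window (27109450). These matches describe the letters of the windows only, and no binding was measured.

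The receptor with the higher level was not the same in the 2 groups. The FPKM ratio of TEK to TIE1 was 0.157, 0.160, 0.144 and 0.0672 in the 4 iEC samples. In the 4 iREC samples it was 2.56, 3.27, 3.08 and 2.74. TIE1 was the higher of the pair in all 4 iEC samples and TEK in all 4 iREC samples. Their summed level was 106 ± 16.1 FPKM in iEC and 228 ± 70.6 FPKM in iREC, or 260.3 ± 35.5 FPKM (SD, n = 3) without iREC F, and TEK made up 6.3% to 13.8% of it in iEC and 71.9% to 76.6% in iREC. For the ratio of TEK to its ligand ANGPT2, the iEC samples ran from 0.0252 to 0.0815 and the iREC samples from 31.8 to 59.8.

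**Figure D2:**
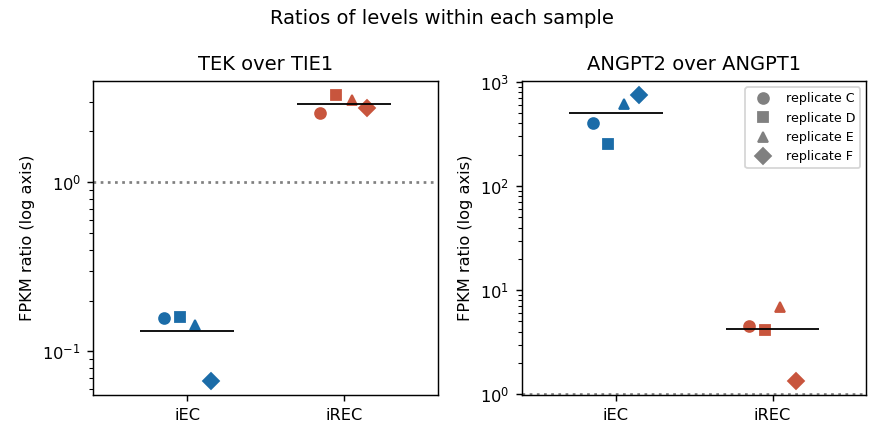
FPKM ratios within each sample on log axes, TEK over TIE1 at left and ANGPT2 over ANGPT1 at right; points are samples, bars are group means and the dotted line marks equal levels. TEK over TIE1 lies between 0.0672 and 0.160 in iEC and between 2.56 and 3.27 in iREC.

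The phosphatase gene PTPRB (ENSG00000127329, minus strand of chromosome 12, 70515866 to 70637440) was higher in iREC, as its substrate TEK was. Its level was 104, 142.6, 92.75 and 84.96 CPM in the 4 iEC samples. It was 420.1, 697.3, 829.4 and 249.3 CPM in the 4 iREC samples. All iREC samples exceeded all iEC samples, with F the lowest of each group. The means were 106 ± 25.6 and 549 ± 263 CPM, a log2 fold change of 2.37 ± 0.36 (SE, edgeR), or 5.18-fold higher, and 2.61 on the log2 scale without iREC F. The FPKM ratio of TEK to PTPRB ran between 1.19 and 1.91 in iEC and between 3.94 and 6.04 in iREC, so by FPKM the receptor exceeded its phosphatase in every sample and by more in iREC. In CPM, which is not corrected for length, TEK was above PTPRB in every iREC sample but below it in every iEC sample. The order in iEC thus rests on the gene lengths used, all exon bases of each gene, 4805 for TEK and 14542 for PTPRB. PTPRB shares 1040 of its 14542 exon bases with the antisense gene AC025569.1, which measured 0.316 to 9.1 CPM over the 8 samples.

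SVEP1 (ENSG00000165124, minus strand of chromosome 9, 110365251 to 110579880), the matrix ligand of TIE1, had the widest spread of the 6 genes. It had 3, 0, 14 and 41 reads in the 4 iEC samples, or 0.195, 0, 0.8287 and 2.94 CPM. In the 4 iREC samples it had 206, 945, 791 and 5464 reads, or 13.5, 67.4, 48.3 and 358 CPM. The groups did not overlap, but iREC F alone held 73.8% of the 7406 iREC reads, and within iREC the highest sample was 26.6 times the lowest. In iEC too, F was the highest sample. The means were 0.990 ± 1.34 and 122 ± 159 CPM, and the log2 fold change was 6.98 ± 1.32 (SE, edgeR), a fold that rests on 58 iEC reads. Without iREC F the iREC mean was 43.1 ± 27.4 CPM (SD, n = 3) and the log2 fold change 5.47, and without iEC F it was 8.40.

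**Figure D3:**
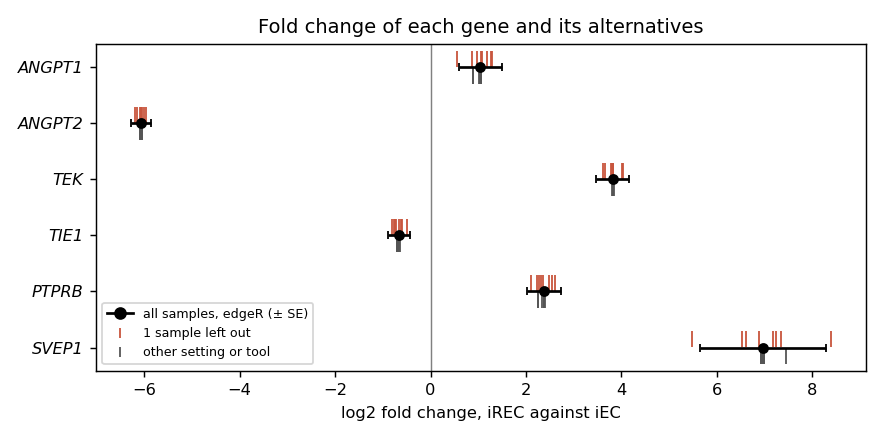
Log2 fold change of each gene, iREC against iEC: the black point is edgeR on all 8 samples with its SE, red ticks leave out 1 sample in turn and dark ticks use another scaling, filter, tool or the replicate block. SVEP1 moves the most, from 5.47 to 8.40, and no gene changes sign.

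The order of levels per length differed between the groups. In iEC the FPKM means ran from ANGPT2 at 261 ± 36.7 through TIE1 at 93.7 ± 15.5, TEK at 12.1 ± 4.08, PTPRB at 7.22 ± 1.65 and ANGPT1 at 0.579 ± 0.195 to SVEP1 at 0.0708 ± 0.0974. Of neighbours in that order, TEK and PTPRB overlapped over samples and the others did not. In iREC the order was TEK at 170 ± 54.6 FPKM, TIE1 at 58.2 ± 16.9, PTPRB at 37.0 ± 17.5, SVEP1 at 8.49 ± 11.1, ANGPT2 at 3.84 ± 0.714 and ANGPT1 at 1.19 ± 0.743. There TIE1 and PTPRB overlapped, and SVEP1, from 0.933 to 25.05 FPKM over its samples, overlapped PTPRB, ANGPT2 and ANGPT1. Without iREC F the order of SVEP1 and ANGPT2 turned, at 2.97 ± 1.88 and 4.11 ± 0.578 FPKM (SD, n = 3). ANGPT2 led the 6 genes in iEC and was among the lowest 3 in iREC, where TEK led, with iREC F or without it.

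In bulk samples, fewer cells of a type and less RNA per cell cannot be told apart, so the levels were also set against the endothelial marker sum of the same sample. Per 1000 CPM of that sum, TEK was 8.35, 9.54, 8.38 and 4.10 in the 4 iEC samples. In the 4 iREC samples it was 126, 128, 129 and 119. On this scale iREC F lay close to the other iREC samples for TEK. TIE1 ran between 74.0 and 85.0 in iEC and between 54.4 and 68.5 in iREC, PTPRB from 10.4 to 16.2 and from 63.0 to 98.1, and ANGPT2 from 165 to 287 and from 3.03 to 5.30. SVEP1 in iREC was 2.02, 9.49, 5.55 and 91.7, and ANGPT1 was 0.893, 1.19, 0.463 and 4.13, so for both genes iREC F stood further from the rest on this scale. The 11 endothelial markers were not level themselves: 2 were called higher and 5 lower in iREC.

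The summed level of mesenchymal markers was highest in the sample with the most SVEP1 in each group. The fibroblast and mesenchymal markers summed to 109, 134, 115 and 350.4 CPM in the 4 iEC samples and to 711, 1366, 933 and 4199 CPM in the 4 iREC samples. In both groups F was the highest sample, as it was for SVEP1. For ANGPT1 F was the highest iREC sample but the lowest iEC sample, and iREC E, with more of these markers than iREC C, had less ANGPT1. COL3A1, a fibrillar collagen gene, was at 1641 CPM in iREC F and at 32.5 to 254 CPM in the other iREC samples. DCN, the proteoglycan decorin, was at most 3 counts in every iEC sample and at 0.589, 17.7, 4.21 and 134 CPM in the 4 iREC samples. THY1, on the same list, went the other way, with F its lowest sample in each group. It stood at 60.4, 83.3, 28.4 and 21.5 CPM in iEC and at 23.4, 11.5, 13.6 and 8.65 CPM in iREC. Of 6 markers of this list tested, 2 were called higher and 1 lower in iREC. The part of these cells in the SVEP1 and ANGPT1 levels was not tested.

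**Figure D4:**
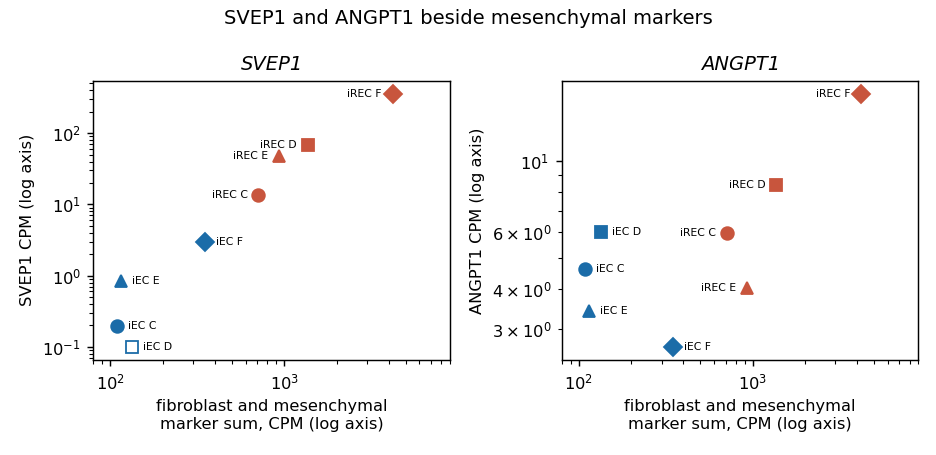
SVEP1 (left) and ANGPT1 (right) in CPM against the summed CPM of 10 fibroblast and mesenchymal markers, both on log axes; each point is 1 labelled sample and the open square is iEC D, with 0 SVEP1 reads. For both genes iREC F is the highest sample, at a marker sum of 4199 CPM.

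The 11 mural markers summed to 175 to 239.5 CPM in iEC and to 916, 811, 459 and 1846 CPM in the 4 iREC samples. KCNJ8 and DES were at most 3 counts in every iEC sample. The largest part of each iREC sum was TAGLN, at 732, 557, 318 and 869.7 CPM. PDGFRB was at 2.15 to 17.6 CPM in iEC and at 4.71, 27.1, 10.3 and 127 CPM in iREC. RGS5 went the other way, at 60.8 to 161 CPM in iEC and 29.2 to 70.5 CPM in iREC. Of 8 mural markers tested, 4 were called higher and 1 lower. Epithelial markers summed to 391 to 1174 CPM in iEC and to 302, 1117, 422 and 4924 CPM in the 4 iREC samples, and CDH1 was at most 3 counts in every iEC sample. Pluripotency markers ran from 39.0 to 91.0 CPM in iEC and from 53.3 to 505 CPM in iREC, with NANOG and TDGF1 at most 3 counts in all samples. The highest sum, that of iREC F, was almost all LIN28A, at 482 CPM. There POU5F1 and SOX2 were each at 0.393 CPM, and DPPA4, at 22.5 CPM, was the lowest of the 8 samples. Markers of retinal neurons and pigment epithelium stayed between 2.88 and 9.83 CPM over the 8 samples, and blood markers between 15.2 and 46.7 CPM. Most of the blood sum was RUNX1, at 13.9 to 46.4 CPM. TEK, TIE1 and PTPRB were lower in iREC F, where the mural, epithelial and pluripotency sums were highest, than in the other iREC samples, and ANGPT2 was also lowest there. The part of the other cell types in these levels was not tested.

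The other genes of the pathway came from 6 lists, chosen by role but with earlier results of these data known, so nothing is read from their shares. Of their 96 genes, 78 passed the filter and 37 were called by edgeR, 47.4% of those tested against 25.0% of all genes, 26 higher and 11 lower in iREC. Their median log2 fold change was 0.23. Without iREC F, 41 were called. Ranges of CPM below follow the order iEC, then iREC, and each p is edgeR's, adjusted by the Benjamini-Hochberg method over all tested genes.

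Of 22 genes that act downstream of TEK, 19 were tested and 12 were called, 6 higher and 6 lower, with a median log2 fold change of -0.05. GRB14, an adaptor that docks on phosphorylated TEK, rose from 1.32 ± 0.993 to 11.1 ± 3.34 CPM (a log2 fold change of 3.05 ± 0.52, SE, adjusted p 0.00288). The kinase gene PAK1 rose from 6.98 ± 1.09 to 21.5 ± 5.04 CPM (adjusted p 0.00067). FOXO1, the transcription factor restrained by TEK and AKT signalling, stood at 54.2, 67.1, 44.9 and 44.9 CPM in the 4 iEC samples and at 158, 127, 163 and 91.8 CPM in the 4 iREC samples. It was higher in every iREC sample than in any iEC sample, with a log2 fold change of 1.35 ± 0.21 (SE, adjusted p 0.0017). FOXO3, its relative, rose from 15 ± 2.81 to 30.2 ± 4.23 CPM (adjusted p 0.00303).

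Genes of the PI3 kinase arm were among those that fell. PIK3CB, a catalytic subunit, fell from 47.3 ± 7.74 to 23.1 ± 2.26 CPM (a log2 fold change of -1.04 ± 0.15, SE, adjusted p 0.00112). PIK3R1, the regulatory subunit, fell from 82.2 ± 9.52 to 46.5 ± 1.56 CPM (adjusted p 0.00101). The adaptor SHC1 fell from 599 ± 99.8 to 328 ± 39.9 CPM (adjusted p 0.00325). NOS3, the endothelial nitric oxide synthase, was at 118 ± 15.1 and 143 ± 41.1 CPM, a difference that was not called (a log2 fold change of 0.28 ± 0.21, SE, adjusted p 0.364). Transcript levels give no reading of how active the kinases were.

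Of 27 known targets of FOXO factors, 24 were tested and 10 called, 7 higher and 3 lower, with a median log2 fold change of 0.12. PDK4, which slows glucose oxidation in mitochondria, rose from 0.341 ± 0.434 to 44.9 ± 28.9 CPM (a log2 fold change of 7.01 ± 0.87, SE, adjusted p 0.000516). In iEC PDK4 was near or below the floor, at 0, 0.948, 0.0592 and 0.358 CPM and at most 15 reads. The size of its fold therefore rests on few iEC reads. IRS2, an insulin receptor substrate, stood at 2.93, 9.80, 8.11 and 11.2 CPM in the 4 iEC samples and at 126, 130, 164 and 99.9 CPM in the 4 iREC samples. Every iREC sample was far above every iEC sample for IRS2, with a log2 fold change of 4.02 ± 0.38 (SE, adjusted p 0.000128). SESN3, a stress-response gene that restrains growth signalling, rose from 9.57 ± 3.80 to 112 ± 43.6 CPM (adjusted p 0.000249), and CDKN1B, a cell cycle inhibitor, from 25.0 ± 5.56 to 84.4 ± 12.6 CPM (adjusted p 0.000266).

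The 3 targets that fell were ESM1, TRIB1 and MXI1. ESM1, a secreted proteoglycan gene of endothelial tip cells, stood at 462, 536, 393 and 417 CPM in the 4 iEC samples and at 50.1, 64.2, 76.7 and 50.2 CPM in the 4 iREC samples. The groups were far apart, with a log2 fold change of -2.91 ± 0.18 (SE, adjusted p 2.1e-05). ANGPT2, itself a known FOXO1 target, likewise had its lower level in the group with more FOXO1 transcript. The part of FOXO1 in the levels of ESM1 and ANGPT2 was not tested. TRIB1 fell from 66.7 ± 17.5 to 10.9 ± 7.05 CPM (adjusted p 0.002). MXI1 fell from 6.23 ± 1.78 to 3.06 ± 0.558 CPM (adjusted p 0.0312), but this call was lost in 8 of 15 alternatives, among them the omission of any single sample other than iEC D, with adjusted p up to 0.088.

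**Figure D5:**
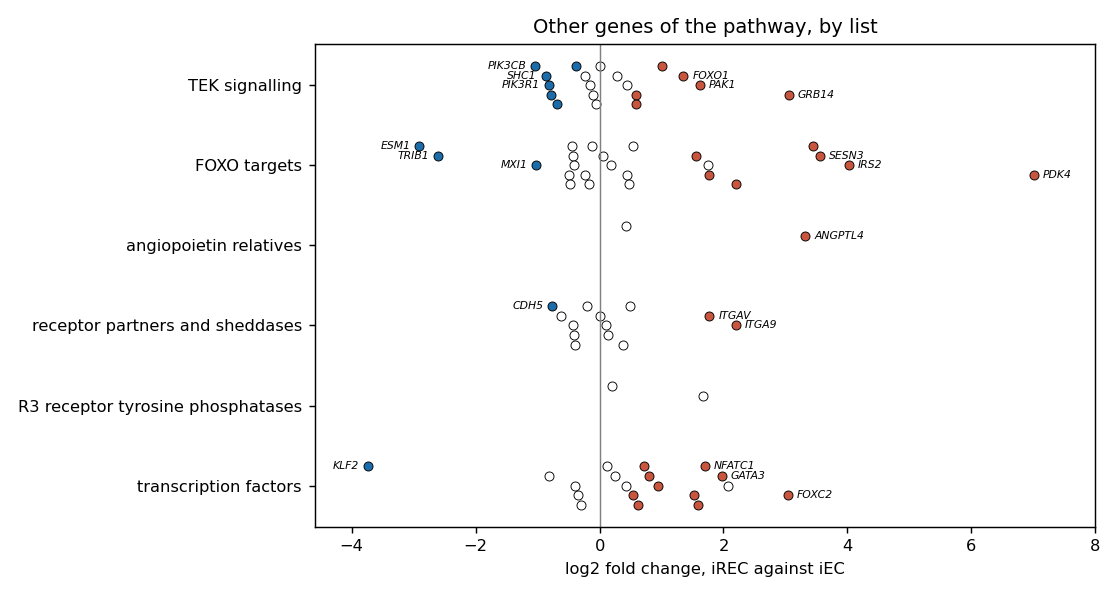
Log2 fold change, iREC against iEC, of the tested genes of 6 pathway lists; each point is 1 gene, filled red where called higher, filled blue where called lower and open where not called by edgeR, and vertical position within a list only separates the points. PDK4 lies furthest right, at 7.01, with at most 15 reads in an iEC sample, and KLF2 furthest left, at -3.74.

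Of 9 relatives of the angiopoietins, 2 passed the filter, and ANGPT4, the remaining angiopoietin, did not. ANGPTL4, a secreted inhibitor of lipoprotein lipase, rose from 2.13 ± 1.44 to 21.2 ± 5.48 CPM (a log2 fold change of 3.32 ± 0.46, SE, adjusted p 0.001). Among 14 partners and sheddases of the receptors, 13 were tested and 3 were called, 23.1% of those tested, with a median log2 fold change of 0.01. Both rises were in integrin chains: ITGAV rose from 117 ± 14.5 to 400 ± 27.7 CPM (adjusted p 3.78e-05) and ITGA9, a chain that can bind SVEP1, from 71.2 ± 46.1 to 327 ± 101 CPM (adjusted p 0.0104). CDH5, the VE-cadherin that PTPRB also dephosphorylates, fell from 1351 ± 229 to 799 ± 204 CPM (adjusted p 0.0298). The CDH5 call was lost without iEC D, without iEC E, without iEC F, without iREC D and under the replicate block, with adjusted p up to 0.0803. PTPRJ, a receptor phosphatase of the same class as PTPRB, was at 4.49, 1.52, 10.8 and 14.2 CPM in the 4 iEC samples and at 4.78, 24.6, 13.1 and 56.0 CPM in the 4 iREC samples, groups that overlapped. Its log2 fold change was 1.67 ± 0.79 (SE, adjusted p 0.158) and 0.86 without iREC F.

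Of 21 transcription factors known to act at the TEK, TIE1 or ANGPT2 promoters, 19 were tested and 11 were called, 10 higher and 1 lower, with a median log2 fold change of 0.62. FOXC2, a forkhead factor that activates ANGPT2, rose from 5.02 ± 1.5 to 41.5 ± 8.84 CPM (a log2 fold change of 3.04 ± 0.27, SE, adjusted p 9.87e-05), whereas ANGPT2 was the lower in iREC. The part of FOXC2 in the ANGPT2 level was not tested. GATA3 rose from 35.7 ± 23.0 to 140.1 ± 46.0 CPM (adjusted p 0.00848) and NFATC1 from 3.0 ± 1.12 to 9.74 ± 3.03 CPM (adjusted p 0.00686). EPAS1, the hypoxia-inducible factor HIF-2α, rose from 562 ± 223 to 1616 ± 153 CPM (adjusted p 0.0034). KLF2, the flow-responsive factor, fell, from 14.1, 8.15, 35.0 and 19.6 CPM in the 4 iEC samples to 1.37, 1.5, 1.04 and 1.83 CPM in the 4 iREC samples. Its log2 fold change was -3.74 ± 0.46 (SE, adjusted p 0.000493). Of 8 ETS factors on the list, 7 were tested, and FLI1, ETS2, ELK3 and ELF2 were called, all 4 higher, with log2 fold changes of 0.71 ± 0.21, 0.94 ± 0.25, 0.79 ± 0.22 and 0.62 ± 0.17 (SE) and adjusted p of 0.0393, 0.0234, 0.0273 and 0.0228. Each of these 4 calls was lost without iEC E, without iREC D and without iREC E, with adjusted p up to 0.0996 over the alternatives. FLI1 and ETS2 also lost it without iEC F and without iREC C, and FLI1 without iEC C. ERG (log2 fold change 0.12 ± 0.20), ETS1 (-0.35 ± 0.19) and ELF1 (-0.40 ± 0.14, SE) were not called, at adjusted p of 0.713, 0.205 and 0.0574.

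The genes with the most similar profiles over the 8 samples were sought among 12823 protein-coding genes. The measure was the root mean square (RMS) difference in log2 CPM after each gene was centred on its own mean. Centring takes out the absolute level, but the prior count of 2 shrinks differences near the floor, so genes with unlike fold changes can lie close. The profile of ANGPT2 was nearest to NOX4, an NADPH oxidase gene, at an RMS of 0.21, followed by TMEM233 at 0.30 and RASGRF2 at 0.32. NOX4 was at 27.2 ± 3.22 CPM in iEC and, near the floor, at 0.295 ± 0.0812 CPM in iREC. TMEM233 was at 8.66 ± 1.83 CPM in iEC and 0 CPM in iREC, a log2 fold change of -10.06 against -6.07 for ANGPT2. With no reads of TMEM233 in iREC, the size of its fold is not a measured ratio. TEK was nearest to DENND2D at 0.17, SMCO3 at 0.27 and INTS6L at 0.28, and of these INTS6L was at 7.90 ± 2.58 and 83.6 ± 23.5 CPM. DENND2D and SMCO3 were near or below the floor in iEC, at 0.284 and 0.0469 CPM. Their log2 fold changes were 4.39 and 5.59, against 3.82 for TEK.

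TIE1 had the closest neighbours of the 6 genes: TECPR1 at an RMS of 0.10, and CDH5 and PPM1F at 0.12 each. The RMS was not scaled by spread, so how close the neighbours of a gene lie also depends on how much it varies. In size, TIE1 had the smallest log2 fold change of the 6 genes, at -0.67, and SVEP1 the largest, at 6.98. PTPRB was nearest to TMEM150C at 0.16, ZNF704 at 0.22 and PLAGL1 at 0.23, and ANGPT1 to BRI3BP at 0.18, SKP2 at 0.26 and RAB23 at 0.28. SVEP1 had the most distant neighbours, ACTG2, a smooth muscle actin gene, at 0.95, the matrix gene POSTN at 0.96 and TENM2 at 1.06. POSTN, which is also on the mesenchymal marker list, was at 13.4 ± 13.4 CPM in iEC and 852 ± 335 CPM in iREC.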

How the data were processed

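The data are RNA sequencing of 4 iEC and 4 iREC samples of WTC-TJP1 cells, poly-A selected with dUTP in the second strand per the labels' protocols. The submitters' processing notes name fastp, HISAT2 2.0.5 and hg38; the counting program, and whether it used strand, are not given in the sources used here. The authors deposited 1 table of raw read counts per gene, a normalized signal (counts divided by a size factor per sample), FPKM, log2 fold changes and p-values, per the file headers. Only the deposited counts and FPKM are used here; the deposited FPKM equal the normalized counts over gene length and a library size of 15383181. All 30386 identifiers, starts and ends matched GENCODE 29 on GRCh38, and coordinates are 1-based. TEK and TIE1, 2 of the 6 genes, have promoter sequences printed from RefSeq.

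The comparison used edgeR 4.0.16 (R 4.3.3): filterByExpr (minimum count 10), TMM scaling, quasi-likelihood F-test with group as the only term, all 8 samples, Benjamini-Hochberg adjustment over 15330 genes, threshold 0.05. Standard errors come from the coefficient and the F statistic. The fit was tested on simulated data. No molecular identifiers are named in the labels, and floors cover counting error only. A symbol listed more than once took its entry with the most reads.

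The 6 genes and the pathway and marker lists were chosen with earlier results of these data known. The text names each of the 6 genes, up to 3 called genes per pathway list and direction by log2 fold change with a mean of at least 1 CPM, and the 3 nearest profiles per gene (prior count 2). FOXO3, NOS3, CDKN1B, EPAS1, ERG, FLI1, ETS2, ELK3, ELF2, ETS1, ELF1, ANGPT4 and PTPRJ were named after their values were seen. The alternatives tried were scaling by DESeq2 size factors or by library size alone, omission of the filter, a stricter filter (1 CPM, mean count 50), DESeq2 1.42.0, limma-voom (limma 3.58.1), the replicate letter as a block and each sample left out in turn. For the named pathway genes these were chosen after seeing the data.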

Additional observations from a re-analysis of the deposited data

Results flagged for a closer look

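The values of 74 groups of 4 samples were searched for a sample whose gap to its nearest neighbour exceeded the 95% limit of Dixon's ratio. In SVEP1, iREC F at 358 CPM stood apart from the other iREC samples, at 13.5 to 67.4 CPM. The fibroblast and mesenchymal marker sum of iEC F, 350.4 CPM, stood apart from the other iEC samples, at 109 to 134 CPM. The blood marker sum of iEC E was 46.7 CPM against 24.3 to 25.4 CPM. RUNX1 alone was 46.4 CPM of it, and PTPRC, SPI1, GATA1 and CD14 had at most 3 counts in every iEC sample. GATA3 in iEC D was 69.9 CPM against 20.1 to 27.0 CPM. Chance alone gives such a sample in about 1 in 20 groups, or 3.7 of these 74, and 4 were found.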

How the results depend on the processing

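Over 15 alternative analyses, the number of genes called ran from 2660 (without iREC D) to 4664 (DESeq2), the number of the 6 genes called from 3 (limma-voom, without SVEP1) to 5 (with TIE1, without a filter, by DESeq2 or without iREC E), and that of pathway genes from 29 (without iREC D) to 43 (DESeq2). No log2 fold change of the 6 genes or of the named pathway genes changed sign. Of the named pathway genes called, MXI1, CDH5, FLI1, ETS2, ELK3 and ELF2 lost the call in some alternatives: FLI1 also with library size only, ELK3 also under the replicate block, and the rest as given beside them. The same letters deviated together only in part: the correlation across genes of their deviations from the group means was 0.168 for C, -0.0794 for D, 0.0291 for E and 0.25 for F, which does not settle whether the letters pair the samples, and only F correlated best with its own letter from both sides. With the letter as a replicate block, 3334 genes, 4 of the 6 genes and 35 pathway genes were called. Depth limits SVEP1 in iEC, with 58 reads in all, and PDK4 in iEC, with at most 15 reads in a sample.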
